A study of Danio rerio with 6 samples.

Results

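A set of 7 zebrafish genes used as granulocyte markers, mpx, lyz, npsn, lect2l, csf3r, cebp1 and cpa5, were followed by RNA sequencing in mpeg1-GFP+ cells sorted from adult skin. They were chosen by gene name from the 32520 genes listed, and all 7 were found. Each matched a single identifier, and 4 of the 7 (csf3r, mpx, npsn and lect2l) had enough reads to be tested. The fish were untreated adults of 3 months. All carried tg(mpeg1-EGFP), whose promoter is active in macrophages and also in metaphocytes, an epithelial-like cell type of the skin. All also carried tg(Kdrl:Cre) and tg(act2b:loxP-STOP-loxP-DsRedexpress), so that cells descending from kdrl-expressing endothelium, which gives rise to blood, are permanently marked with DsRed. Blood cells that arise elsewhere would not be marked. The 6 libraries formed 3 groups of 2: GFP+DsRed- cells of csf1rDM fish, which are homozygous for csf1ra j4e1 and csf1rb sa1503, the 2 zebrafish genes of the colony stimulating factor 1 receptor, and GFP+DsRed+ and GFP+DsRed- cells of control fish, which are wild type at both. The groups are called csf1rDM, control DsRed+ and control DsRed- cells from here on, all of them GFP+. No source used here states how many fish went into a library, and p-values therefore measure only the spread between these libraries, which may be technical.

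Granulocytes are short-lived white blood cells that carry enzymes and antimicrobial proteins in granules. Neutrophils, the main type in zebrafish, mature in the kidney marrow under granulocyte colony stimulating factor (G-CSF), which binds the receptor Csf3r and signals through JAK kinases and STAT proteins, and they enter the skin when it is wounded or infected. Mpx is the myeloperoxidase of zebrafish neutrophil granules, Lyz a lysozyme that breaks bacterial cell walls, Npsn (nephrosin) a secreted metalloprotease of the astacin family, Lect2l a relative of the leukocyte chemotactic factor Lect2, and Cebp1 a myeloid transcription factor of the C/EBP family. Cpa5, a carboxypeptidase, marks zebrafish mast cells, a granulocyte of tissues. Csf3r is not bound to granulocytes alone, since cells of the monocyte and macrophage lineage carry it in mammals.

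Depth set what could be seen of these genes. Between 4024253 and 5072642 reads were assigned to genes in the csf1rDM libraries, between 10069877 and 14816042 in the control DsRed+ libraries and between 10448033 and 11363542 in the control DsRed- libraries. Levels are given as CPM, reads scaled to a common library total of 1000000, so that a single read was worth 0.067 CPM in the deepest library and 0.248 CPM in the shallowest. The smallest level taken as detected was 3 reads, or 0.202 to 0.745 CPM. These floors, like the intervals of single libraries, cover counting error only. The 16 macrophage markers summed to 156 and 158 CPM in csf1rDM, 5744 and 5844 CPM in control DsRed+ and 317 and 189 CPM in control DsRed- libraries, and the 6 metaphocyte genes to 4632 and 4681, 1526 and 1335, and 3948 and 3836 CPM in the same order. Macrophage RNA was therefore concentrated in the DsRed+ cells. In csf1rDM libraries most of the macrophage sum came from mpeg1.1 (127 and 98.2 CPM). In control DsRed- libraries most came from mpeg1.1 (150 and 64.4 CPM) and csf1ra. Of the mutated genes, csf1ra stood at 1.40 and 2.25 CPM in csf1rDM cells, against 102 and 86.9 CPM in control DsRed- cells. csf1rb had no read in either csf1rDM library. The study states that csf1rDM fish lack most of their xanthophores, a type of pigment cell. The 10 pigment cell markers summed to 11.5 and 15.7 CPM in csf1rDM and 395 and 346 CPM in control DsRed- libraries. The part of pigment cells in the csf1ra level was not tested.

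The receptor gene csf3r (ENSDARG00000045959) was the tested member that differed most between groups. It had 1.80 and 2.5 CPM in the csf1rDM libraries (9 and 10 reads), 353 and 296 CPM in the control DsRed+ libraries (3559 and 4388 reads), and 5.75 and 2.80 CPM in the control DsRed- libraries (65 and 29 reads). Both DsRed+ libraries thus lay far above all 4 DsRed- libraries of either genotype. The mean was 2.15 ± 0.495 CPM in csf1rDM, 325 ± 40.5 CPM in control DsRed+ and 4.27 ± 2.08 CPM in control DsRed- cells (SD of 2 libraries, as throughout).

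**Figure D1:**
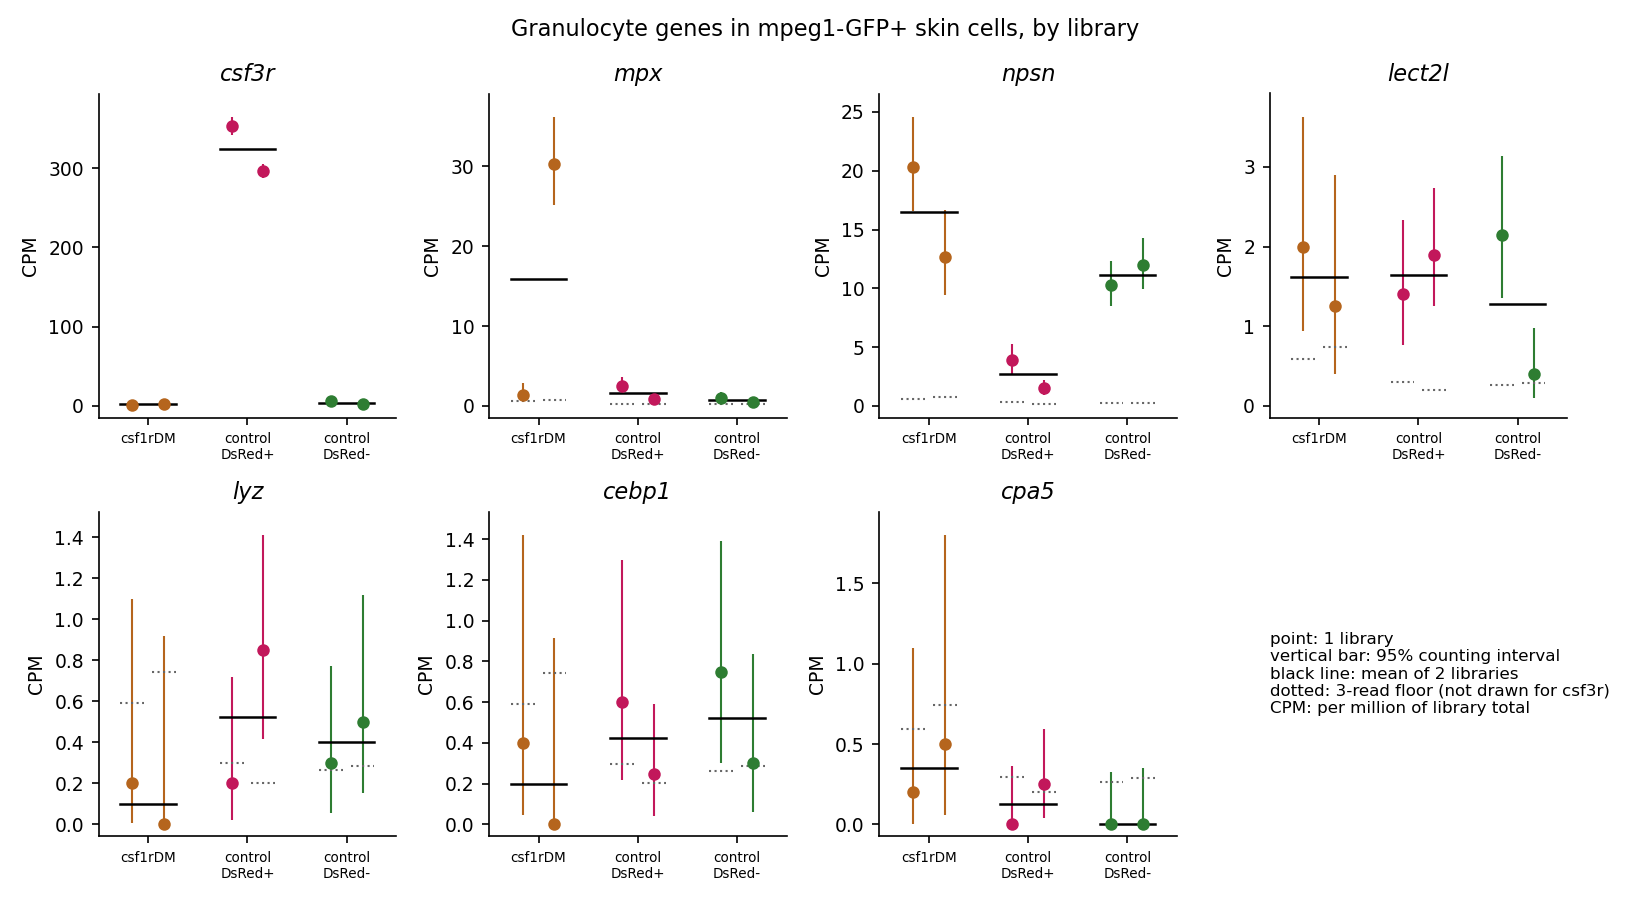
Level of the 7 granulocyte genes (CPM, linear axes that differ between panels) in each of the 6 libraries, with csf1rDM, control DsRed+ and control DsRed- cells from left to right. Points are libraries, vertical bars their 95% counting intervals, black lines group means and dotted lines the 3-read floor. csf3r is high in both DsRed+ libraries (353 and 296 CPM) and mpx in a single csf1rDM library (30.3 CPM). lyz, cebp1 and cpa5 reach at most 0.849 CPM, and lyz and cebp1 are each at or under the floor in 4 of the 6 libraries.

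The member genes were first compared between DsRed+ and DsRed- cells of control fish, which asks how they differ between blood-derived and unmarked mpeg1-GFP+ cells. Only csf3r passed the threshold, which asked for an adjusted p below 0.05 and for a log2 change of more than 2 up or down. Its mean CPM was 76.0-fold higher in DsRed+ cells (log2 fold change on the log2(CPM + 1) scale 6.19 ± 0.29 SE, limma adjusted p = 8.55e-05). The granule protease gene npsn (ENSDARG00000010423) moved the other way, with 3.90 and 1.5 CPM in DsRed+ libraries (39 and 22 reads) and 10.3 and 12.0 CPM in DsRed- libraries (117 and 125 reads). The groups did not overlap, and npsn was 4.13-fold lower in DsRed+ cells (-1.61 ± 0.40, limma adjusted p = 0.0258), past the p limit but not the fold limit. This call lost its adjusted p when the control DsRed+ replicate 3 (-1.08, limma adjusted p = 0.149) or the control DsRed- replicate 1 (-1.73, 0.0789) or 2 (-1.46, 0.138) was left out. Without the control DsRed+ replicate 1 the log2 fold change was -2.13, with a single library left in that group.

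For mpx and lect2l the control groups overlapped. mpx (ENSDARG00000019521) had 2.5 and 0.849 CPM in DsRed+ libraries (25 and 12 reads) and 0.999 and 0.50 CPM in DsRed- libraries (11 and 5 reads), a log2 fold change of 0.67 ± 1.06 (limma adjusted p = 0.692). lect2l (ENSDARG00000033227) had 1.40 and 1.90 CPM in DsRed+ libraries (14 and 28 reads) and 2.15 and 0.40 CPM in DsRed- libraries (24 and 4 reads), a log2 fold change of 0.45 ± 0.40 (limma adjusted p = 0.453). The myeloperoxidase gene and the chemotactic factor gene were thus at no more than 2.5 CPM in either kind of cell. Of the 4 tested members 1 passed the threshold, where 6.02% of all 20382 tested genes did, and 2 had an adjusted p below 0.05, where 25.4% of all genes did. With so few members these shares cannot be set apart from the background. In bulk libraries such as these, fewer cells of a type and less RNA per cell cannot be told apart.

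The question for csf1rDM cells was how the same genes differ in unmarked cells that lack both receptors. In csf1rDM compared with control DsRed- cells, 0 of the 4 tested members passed the threshold with limma and 0 had an unadjusted p below 0.05. Of all tested genes, 1.56% passed it and 6.51% had an adjusted p below 0.05. The quasi-likelihood test of edgeR on the recovered reads also called 0 members past the threshold, whereas DESeq2 called 1, mpx. csf3r was 1.80 and 2.5 CPM in csf1rDM libraries, below the 5.75 and 2.80 CPM of control DsRed- libraries without overlap, but the difference did not pass the test (-0.58 ± 0.29, limma adjusted p = 0.259).

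npsn had 20.3 and 12.7 CPM in csf1rDM libraries (103 and 51 reads), against 10.3 and 12.0 CPM in control DsRed- libraries. The lowest csf1rDM value lay only just above the highest control value, and the difference did not pass the test (0.64 ± 0.40, limma adjusted p = 0.352). lect2l had 2.00 and 1.25 CPM in csf1rDM libraries (10 and 5 reads), within the range of the control libraries (0.39 ± 0.40, limma adjusted p = 0.566).

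mpx depended on a single library. It had 1.40 CPM in csf1rDM replicate 2 (7 reads) but 30.3 CPM in csf1rDM replicate 3 (122 reads), against 0.999 and 0.50 CPM in control DsRed- libraries. The mean in csf1rDM cells was 15.9 ± 20.5 CPM, with an SD larger than the mean, and 0.75 ± 0.353 CPM in control DsRed- cells, a log2 fold change of 2.40 ± 1.06 (limma adjusted p = 0.201). DESeq2 on the recovered reads gave 4.68 with an adjusted p of 0.00107, and edgeR's quasi-likelihood test 4.60 with an adjusted p of 0.0904. Without csf1rDM replicate 3 the limma value was 0.55, and without csf1rDM replicate 2 it was 4.25. Each of these fits had a single csf1rDM library left. The high level of mpx is therefore a property of the library of csf1rDM replicate 3 and was not seen in the other csf1rDM library.

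**Figure D2:**
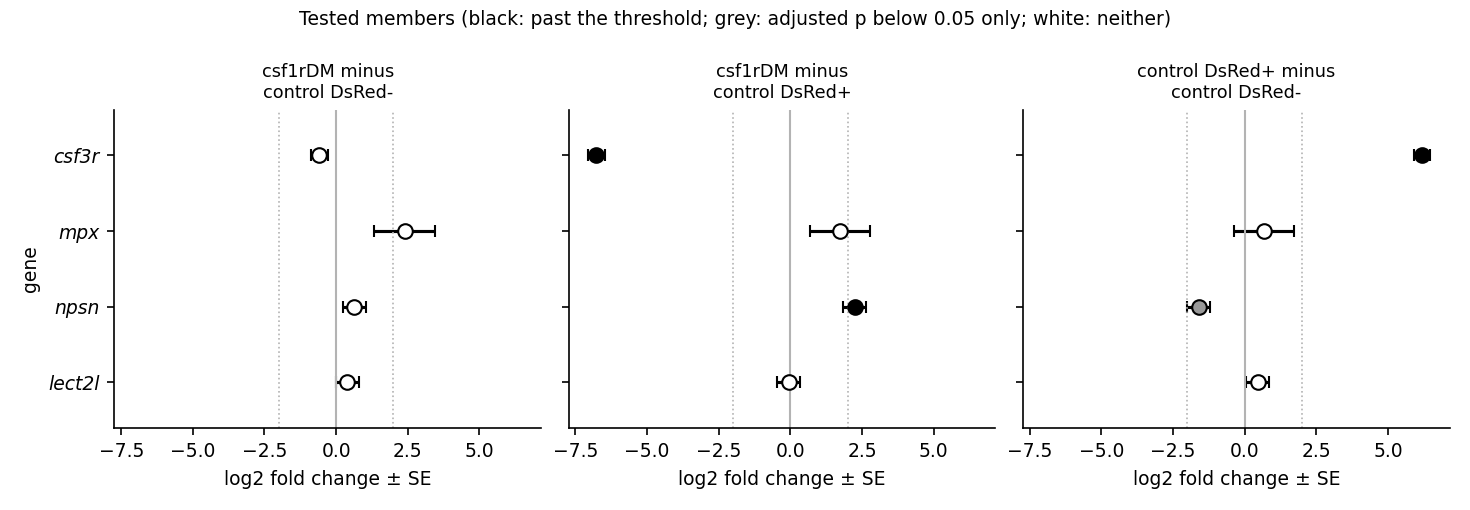
Log2 fold change on the log2(CPM + 1) scale, with the standard error of the limma fit as horizontal bars, of the 4 tested members in the 3 comparisons. Black points passed the threshold, the grey point has an adjusted p below 0.05 only, white points neither, and dotted lines mark the fold limit of 2. csf3r lies at -6.77 and 6.19 in the comparisons with DsRed+ cells and at -0.58 between the DsRed- groups, and mpx has the widest errors (1.06).

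The csf1rDM cells were also compared with control DsRed+ cells. Here genotype and DsRed mark differ at once and cannot be told apart, and the comparison shares its libraries with the other 2 comparisons. csf3r was 151-fold lower in csf1rDM cells (-6.77 ± 0.29, limma adjusted p = 4.96e-05). npsn was 6.12-fold higher in csf1rDM cells (2.25 ± 0.40, limma adjusted p = 0.00587), with 20.3 and 12.7 CPM against 3.90 and 1.5 CPM. Hence 2 of the 4 tested members passed the threshold, where 8.09% of all tested genes did, and the same 2 had an adjusted p below 0.05, where 32.4% of all genes did. npsn fell under the fold limit with a pseudocount of 4 CPM in place of 1 (1.60, adjusted p = 0.00532), without csf1rDM replicate 2 (1.92) and without the control DsRed+ replicate 3 (1.74), the last 2 with adjusted p of 0.0281 and 0.0293. mpx (1.73 ± 1.06, limma adjusted p = 0.25) passed the threshold with DESeq2 (3.26, adjusted p = 0.0122). Its log2 fold change was -0.12 without csf1rDM replicate 3 and 3.59 without csf1rDM replicate 2, with a single csf1rDM library left in each fit. lect2l averaged 1.62 ± 0.53 CPM in csf1rDM and 1.65 ± 0.353 CPM in control DsRed+ cells (-0.06 ± 0.40, limma adjusted p = 0.922).

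The 3 remaining members were not tested, as none reached 1 CPM in 2 libraries. The lysozyme gene lyz (ENSDARG00000057789) had 1 and 0 reads in csf1rDM, 2 and 12 reads in control DsRed+ and 3 and 5 reads in control DsRed- libraries, 23 reads in all. Its highest level was 0.85 CPM, in the control DsRed+ replicate 3, and for csf1rDM replicate 3, which had no read, the 3-read floor is 0.745 CPM. The myeloid factor gene cebp1 (ENSDARG00000101096) had 2 and 0 reads in csf1rDM, 6 and 3 reads in control DsRed+ and 8 and 3 reads in control DsRed- libraries. lyz and cebp1 were each at or under the floor in 4 of 6 libraries. The mast cell carboxypeptidase gene cpa5 (ENSDARG00000021339) had 1 and 2 reads in csf1rDM, 0 and 3 reads in control DsRed+ and 0 reads in both control DsRed- libraries, so that it never exceeded the floor. Without a filter on low values, the adjusted p of these 3 genes over the 3 comparisons ranged from 0.199 to 0.985. Differences between groups were not detectable for them at this depth.

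Apart from csf3r, the members together stayed low in every group. The other 6 summed to 24.5 and 44.8 CPM in csf1rDM, 8.6 and 5.6 CPM in control DsRed+ and 14.5 and 13.7 CPM in control DsRed- libraries. Without mpx as well, the remaining 5 summed to 23.1 and 14.4, 6.1 and 4.75, and 13.5 and 13.2 CPM in the same order.

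Next, the replicates were compared for each member. Between csf1rDM replicates 3 and 2, mpx differed 22.0-fold in CPM (exact 95% interval 10.3 to 55.8 from the read counts) and by 3.70 on the log2(CPM + 1) scale. Of the 20382 tested genes only 28 (0.137%) were at least that far apart between these libraries, whereas the median gene differed by 0.33. The other members did not share the rise. npsn had 51 reads in replicate 3 and 103 in replicate 2 (a CPM ratio of 0.624, exact 95% interval 0.437 to 0.881), lect2l 5 and 10 reads, csf3r 10 and 9 reads, and lyz 0 and 1 read.

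Of the 28 genes, 11 were higher in replicate 3. Besides mpx they included irg1l, a relative of immunoresponsive gene 1 (3.2 CPM in replicate 2 and 292 CPM in replicate 3), il19l, which is named for the cytokine interleukin 19 (1.2 and 31.6 CPM), and the titin gene ttn.2 (3.2 and 152 CPM). irg1l and il19l were at most 6.05 and 0.65 CPM in the 4 control libraries. The 17 genes higher in replicate 2 included cyp7a1 (75.3 and 2.0 CPM) and cyp8b2 (297 and 5.75 CPM), named as sterol hydroxylases of bile acid synthesis, and sqlea (207 and 13.2 CPM), cyp51 (250 and 16.9 CPM) and msmo1 (292 and 19.9 CPM), which act in cholesterol synthesis. Among the 17 was also mpeg1.3 (41.6 and 1.25 CPM), named as a relative of mpeg1.1, which had 127 and 98.2 CPM. As lists, the genes counted further on were split between the replicates. Higher in replicate 3 were 17 of 31 other neutrophil genes, 13 of 23 G-CSF pathway genes and 3 of 8 genes of the mast cell list. Of all 20382 tested genes, 9698 were. The median differences of the lists were 0.07, 0.07 and -0.27 on the log2(CPM + 1) scale, beside -0.02 over all tested genes. Of the list genes higher in replicate 3, il1b, a pro-inflammatory cytokine gene, had 25.6 CPM in replicate 2 and 68.8 CPM in replicate 3. The neutrophil chemokine gene cxcl8a had 23.3 and 44.2 CPM, and stat3, which signals below Csf3r, 193 and 398 CPM. Of those lower there, the transcription factor gene runx3 had 191 CPM in replicate 2 and 97.9 CPM in replicate 3, and the arginase gene arg2 276 and 176 CPM. These genes were picked after their values were seen, and whether they have a part in the mpx level was not tested.

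**Figure D3:**
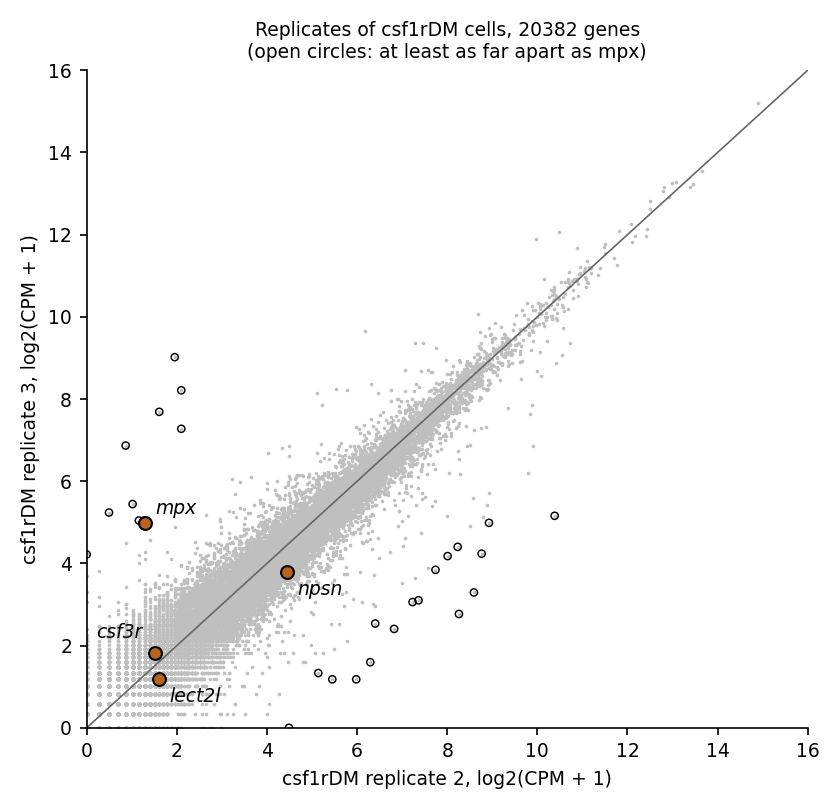
Level of 20382 tested genes in csf1rDM replicate 3 against csf1rDM replicate 2, both as log2(CPM + 1) with TMM factors, with the line of equal levels. Filled circles are the tested members and open circles the other genes at least as far apart as mpx, which lies 3.70 above the line while csf3r (0.31), npsn (-0.66) and lect2l (-0.43) lie near it.

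Smaller replicate differences marked other members too. In control DsRed- cells, csf3r had 65 reads in replicate 1 and 29 in replicate 2, a CPM ratio of replicate 2 to replicate 1 of 0.485 (exact 95% interval 0.302 to 0.763), and the macrophage marker sum was likewise 317 CPM in replicate 1 and 189 CPM in replicate 2. lect2l differed in the same direction between these libraries, with 24 and 4 reads (ratio 0.181, exact 95% interval 0.0457 to 0.528). In control DsRed+ cells, mpx and npsn were both lower in replicate 3 than in replicate 1, with ratios of 0.326 (exact 95% interval 0.149 to 0.674) and 0.383 (0.217 to 0.663). All intervals of these ratios cover counting error only and take every read as independent, so that they say nothing of other differences between libraries.

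The genes whose pattern over the 6 libraries lay nearest to each tested member were then sought among 14615 tested genes with a symbol of their own. Nearness was the Euclidean distance between log2(CPM + 1) values with each gene's mean removed, and it is a description over 6 libraries. Nearest to csf3r were spi1b, the transcription factor Pu.1 of the myeloid lineages (distance 0.32), the complement gene c1qa and the integrin gene itgae.2 (both 0.53), set against a distance of 7.53 between csf3r and a flat profile. spi1b had 2.40 and 3.00 CPM in csf1rDM, 401 and 427 CPM in control DsRed+ and 6.55 and 3.95 CPM in control DsRed- libraries. c1qa had 0 and 0.50 CPM in csf1rDM, 124 and 138 CPM in control DsRed+ and 0.899 and 0.30 CPM in control DsRed- libraries. Of the 3 nearest genes, spi1b and c1qa were in the list of macrophage markers.

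The low csf3r level of unmarked cells was therefore set beside that of the macrophage markers. Relative to control DsRed+ cells, csf3r stood at 0.662% in csf1rDM cells, where the 16 markers had a median of 0.295% (0 to 43.5%). It stood at 1.32% in control DsRed- cells, where they had a median of 1.03% (0.458 to 102%). Both upper ends came from timd4, which averaged only 1.15 CPM in control DsRed+ cells. The next highest were mpeg1.1 at 8.1% in csf1rDM and mertka at 11.2% in control DsRed- cells. In csf1rDM cells 11 of the 16 markers, and in control DsRed- cells 10, retained a smaller share than csf3r did. The 11 included csf1ra (0.165%) and csf1rb (0%), the genes mutated in csf1rDM fish. For these, genotype and cell content cannot be told apart. Of the 16 markers, 15 were higher in control DsRed+ than in control DsRed- cells and 15 were lower in csf1rDM than in control DsRed+ cells (limma adjusted p below 0.05), the same directions as csf3r. Of all tested genes, 25.4% and 32.4% had an adjusted p below 0.05 in these comparisons, counting both directions. The part of macrophages in the csf3r level was not tested.

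npsn lay nearest to znf185 (distance 0.41), capn2l (0.44) and crybg1b (0.45), against 2.48 from a flat profile. The calpain gene capn2l had 352 and 308 CPM in csf1rDM, 91.5 and 53.1 CPM in control DsRed+ and 186 and 236 CPM in control DsRed- libraries. The 10 epidermal markers summed to 21334 and 19808 CPM in csf1rDM, 15022 and 11088 CPM in control DsRed+ and 19310 and 23374 CPM in control DsRed- libraries. Their sum, like that of the metaphocyte genes, was thus lowest where npsn was lowest, but the lists share cdh1 and epcam. The epidermal marker krt8 (3754 and 3514 CPM) and the metaphocyte gene cd4-1 (63.1 and 87.4 CPM) were instead highest in control DsRed+ libraries. The other genes of both lists had their lowest mean in those cells. The part of these genes in the npsn level was not tested. In the RefSeq annotation of another assembly (GRCz12tu), npsn lies between c6ast3 and c6ast1, genes of the same astacin family, and how reads shared between such copies were counted is not given in the sources used here. c6ast3 had at most 2 reads in a library. c6ast1 had 14.6 and 3.5 CPM in csf1rDM, 10 and 11.7 CPM in control DsRed+ and 34.8 and 33.2 CPM in control DsRed- libraries, an order of groups that differed from that of npsn. In the same annotation the csf3r model overlaps 1 protein-coding and 2 long noncoding RNA models, and whether strand was used in counting is likewise not given, so that reads of such partners could not be separated from those of csf3r.

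mpx lay nearest to ttn.2 (distance 1.35), casq2 (1.39) and taar12j (1.46), a poor likeness against its own 3.68 from a flat profile. All 3 were high in csf1rDM replicate 3 alone, at 152, 17.1 and 22.4 CPM. Since titin and calsequestrin are muscle proteins, 9 striated muscle genes were summed, a list added after this was seen. They gave 31.1 and 40.4 CPM in csf1rDM replicates 2 and 3, 38.6 and 45.8 CPM in control DsRed+ and 23.0 and 18.8 CPM in control DsRed- libraries, and 4 of the 9 were higher in csf1rDM replicate 3 than in replicate 2. Of these, ttn.1 had 1.40 CPM in replicate 2 and 10.2 CPM in replicate 3. The part of muscle RNA in the mpx level was not tested. lect2l lay nearest to lmod1a (0.18), btk (0.24), the tyrosine kinase of B cell and myeloid signalling, and sh3kbp1 (0.29), at a distance of its own of only 0.97 from a flat profile.

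Other genes of the neutrophil programme were counted from a list of 31 names, none of them a member, of which cxcr2 had too few reads to be tested and mmp13a occurred under 2 identifiers. In control DsRed+ compared with control DsRed- cells, 13 of the 31 tested genes were higher and 4 lower by adjusted p, 11 and 0 of them past the threshold. These were 54.8% by adjusted p and 35.5% past the threshold, where 25.4% and 6.02% of all genes were, and the median log2 fold change was 0.74, beside -0.026 over all tested genes. The chemokine receptor gene cxcr1 had 29.9 and 22.1 CPM in DsRed+ and 0.899 and 0.60 CPM in DsRed- libraries (4.08 ± 0.30, limma adjusted p = 0.000194). lta4h, whose enzyme makes the neutrophil attractant leukotriene B4, was also higher (3.37 ± 0.28, limma adjusted p = 0.000293), as was alox5ap (2.64 ± 0.25, limma adjusted p = 0.000567), whose protein helps 5-lipoxygenase in leukotriene synthesis. cybb, a subunit of the NADPH oxidase that phagocytes use to kill microbes, gave 3.31 ± 0.31 (limma adjusted p = 0.000513). The DsRed+ cells were also those with 5744 and 5844 CPM of macrophage markers, and the part of macrophages in these levels was not tested. The 4 lower genes were itgam, alox5a, cfl1l and padi2, at log2 fold changes of -2.0, -1.23, -1.05 and -0.75. Of these, itgam alone kept its adjusted p without the control DsRed- replicate 1 and without the control DsRed+ replicate 3, and itgam and alox5a without the control DsRed- replicate 2.

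**Figure D4:**
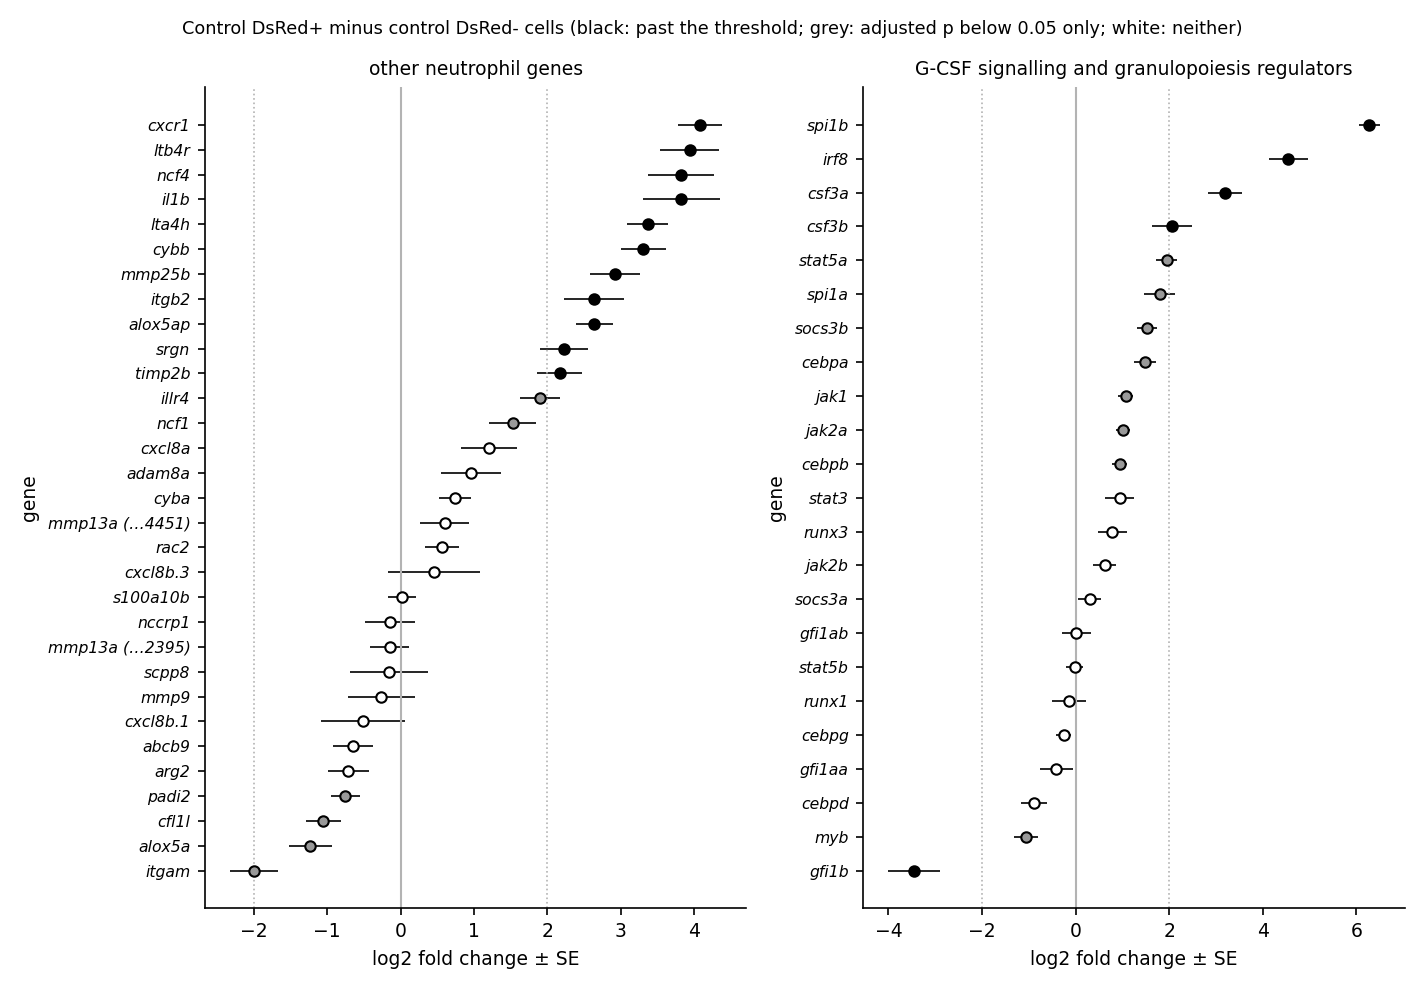
Log2 fold change (log2(CPM + 1) scale) with the standard error of the limma fit for the 31 tested genes of the other neutrophil list (left) and the 23 genes of the G-CSF signalling and granulopoiesis list (right), control DsRed+ minus control DsRed- cells. Black points passed the threshold, grey points have an adjusted p below 0.05 only, white points neither; 11 neutrophil genes lie past 2 with cxcr1 (4.08) the highest, and spi1b (6.28) and gfi1b (-3.45) are the extremes on the right.

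Between csf1rDM and control DsRed- cells, 4 of the 31 were higher and 0 lower by adjusted p, with 1 past the threshold (12.9% and 3.23%, where 6.51% and 1.56% of all genes were) and a median of 0.35, beside -0.047 over all tested genes. The one past the threshold was the collagenase gene mmp13a (ENSDARG00000114451), which had 17.3 and 13.7 CPM in csf1rDM and 0.799 and 2.05 CPM in control DsRed- libraries (2.90 ± 0.33, limma adjusted p = 0.00727). Without csf1rDM replicate 3, which left a single csf1rDM library, its log2 fold change was 3.07. It fell under the fold limit with a pseudocount of 4 CPM (1.90, limma adjusted p = 0.00431). Its second identifier had 2.72 CPM in csf1rDM and 0.40 CPM in control DsRed- cells (1.46 ± 0.27, limma adjusted p = 0.0317), and reads of such copies may be split between them. Only the csf1rDM libraries reached 1 CPM for it (3.2 and 2.25), so it entered the test only through the group where it was high. It lost its adjusted p in 7 of the 14 alternatives that tested it and was not tested in 3. mmp13a thus stands for 2 of the 4 higher genes. The other 2 of the 4 were the lectin-like receptor gene illr4 (1.34 ± 0.27) and timp2b (1.46 ± 0.31), an inhibitor of metalloproteases. Without the control DsRed- replicate 1 or 2, none of illr4, timp2b and the second mmp13a identifier kept its adjusted p (0.129 to 0.221 in limma). Leaving out csf1rDM replicate 3, which was chosen after seeing the data, left 1 of 29 tested genes higher by adjusted p.

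Against control DsRed+ cells, 7 of the 31 were higher in csf1rDM cells and 11 lower by adjusted p, 2 and 8 of them past the threshold (58.1% and 32.3%, where 32.4% and 8.09% of all genes were), with a median of -0.35, beside -0.070 over all tested genes. The 7 included the second mmp13a identifier. Of the 7, abcb9 lost its adjusted p in 9 and cfl1l in 5 of 17 alternatives. Of the 11, adam8a lost it in 4, and itgb2 and srgn in 3 each. Lower were ltb4r, the leukotriene B4 receptor gene (-4.32), cxcr1 (-3.73), lta4h (-3.53) and cybb (-3.21), with limma adjusted p between 0.000214 and 0.000501. Higher were mmp13a (2.30 ± 0.33, limma adjusted p = 0.00248) and scpp8 (2.39 ± 0.53, limma adjusted p = 0.0138). Without csf1rDM replicate 3, scpp8 gave 1.84 with an adjusted p of 0.0663, and 1 gene was past the threshold on the higher side. scpp8 also lost its call without the control DsRed+ replicate 3 (1.70, adjusted p = 0.0652), and with a pseudocount of 4 CPM both scpp8 (1.74) and mmp13a (1.63) fell under the fold limit.

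The pathway upstream of granulocytes was counted from 23 genes of G-CSF signalling and granulopoiesis, besides csf3r and cebp1. In control DsRed+ compared with control DsRed- cells, 11 were higher and 2 lower by adjusted p, 4 and 1 of them past the threshold (56.5% and 21.7%, where 25.4% and 6.02% of all genes were), with a median of 0.94, beside -0.026 over all tested genes. Both ligand genes were among them. csf3a had 31.6 and 17.7 CPM in DsRed+ and 2.15 and 1.95 CPM in DsRed- libraries (3.19 ± 0.36, limma adjusted p = 0.00115), and csf3b 9.95 and 15.7 CPM against 3.30 and 2.15 CPM (2.06 ± 0.43, limma adjusted p = 0.0137). The call of csf3b was lost without the control DsRed- replicate 2 (1.87, limma adjusted p = 0.0838) and without the control DsRed+ replicate 3 (1.80, limma adjusted p = 0.0955), and it fell under the fold limit with a pseudocount of 4 CPM (1.43), with thinned libraries (1.68) and with library totals alone (1.88). Of the transcription factors, spi1b (6.28 ± 0.23) and irf8 (4.55 ± 0.42), which directs myeloid cells towards macrophages, were higher, with limma adjusted p of 8.55e-05 and 0.000462. The DsRed+ libraries also had 5744 and 5844 CPM of macrophage markers, a list that includes spi1b. The part of macrophages in the higher levels of this pathway was not tested. gfi1b, a repressor known from red cell and platelet development, was lower, with 1.40 and 0.45 CPM in DsRed+ and 34.4 and 13.8 CPM in DsRed- libraries (-3.45 ± 0.56, limma adjusted p = 0.00504).

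In csf1rDM compared with control DsRed- cells, 0 of these 23 genes were higher and 1, runx3, was lower by adjusted p (-1.55 ± 0.32, limma adjusted p = 0.0381), 0 were past the threshold, and the median was 0.04, beside -0.047 over all tested genes. By adjusted p these were 4.35%, where 6.51% of all genes were. The runx3 call was lost in 9 of 17 alternatives (limma or edgeR adjusted p of 0.053 to 0.202), among them leaving out each library other than csf1rDM replicate 2. Against control DsRed+ cells, 2 of the 23 were higher in csf1rDM cells and 12 lower, 1 and 5 of them past the threshold (60.9% and 26.1%, where 32.4% and 8.09% of all genes were), with a median of -0.58, beside -0.070 over all tested genes. Of the lower genes, jak1 lost its adjusted p in 12 and jak2a in 8 of 17 alternatives. Of the higher genes, myb lost it in 4. csf3a had 1.60 and 0.75 CPM in csf1rDM and 31.6 and 17.7 CPM in control DsRed+ libraries (-3.61 ± 0.36, limma adjusted p = 0.000577), whereas csf3b had 8.12 CPM in csf1rDM and 12.8 CPM in control DsRed+ cells (-0.75 ± 0.43, limma adjusted p = 0.222). spi1b (-6.89), irf8 (-4.02) and stat5a (-2.35), which codes for a STAT protein of cytokine signalling, were lower and gfi1b (3.72) higher in csf1rDM cells, with limma adjusted p between 3.55e-05 and 0.00297. Here too, the part of macrophages in the lower levels of this pathway was not tested.

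For mast cells, eosinophils and basophils, 14 names besides cpa5 were listed, of which 10 were matched and 8 tested. In control DsRed+ compared with control DsRed- cells 3 were higher and 3 lower by adjusted p, 3 and 1 of them past the threshold (6 and 4 of the 8 in all, where 25.4% and 6.02% of all genes were called), with a median of -0.57. fcer1g and fcer1gl, genes of the Fc receptor gamma chain that mast cells share with macrophages, were higher (5.58 ± 0.29 and 4.52 ± 0.34, limma adjusted p = 8.55e-05 and 0.000211), as was mitfb (3.98 ± 0.31, limma adjusted p = 0.000233). gata2a, a GATA factor gene of blood progenitors and mast cells, was lower (-2.18 ± 0.26, limma adjusted p = 0.00149). Of all libraries only those of control DsRed- cells reached 1 CPM for it (8.29 and 6.80, against 0.70 and 0.70 CPM in DsRed+ libraries). It thus entered the test only through the group where it was high, and could not be tested without either of these libraries. With a pseudocount of 4 CPM it fell under the fold limit (-1.20). The other lower genes, gata2b and kita, stayed under the fold limit. They lost their adjusted p in 3 and 5 of 17 alternatives. Of the mast cell enzyme genes, hdc, which makes histamine, was not tested and had 6 and 0 reads in csf1rDM, 7 and 13 reads in control DsRed+ and 6 and 3 reads in control DsRed- libraries, and cpa5 never exceeded 3 reads.

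Among the 8 genes, in csf1rDM compared with control DsRed- cells, 1 was higher and 2 lower by adjusted p, 0 and 2 of them past the threshold (3 and 2 of the 8 in all, where 6.51% and 1.56% of all genes were called), with a median of -0.73. The higher gene, kita, stayed under the fold limit. It lost its call in a fit of only the groups compared (1.24, limma adjusted p = 0.0505). The call was also lost without the control DsRed- replicate 1 (1.11) or 2 (1.46) and without csf1rDM replicate 3 (1.05). gata2a had 0.60 and 0.25 CPM in csf1rDM and 8.29 and 6.80 CPM in control DsRed- libraries (-2.47 ± 0.26, limma adjusted p = 0.00569). Here too it entered the test only through the control DsRed- libraries, where it was high. mitfa had 0.20 and 0 CPM against 5.65 and 4.70 CPM (-2.38 ± 0.27, limma adjusted p = 0.00722). Without the control DsRed- replicate 1 or 2, gata2a could not be tested and mitfa lost its call (-2.27 and -2.44, limma adjusted p = 0.0634 and 0.0733). With a pseudocount of 4 CPM both fell under the fold limit (-1.30 and -1.09). mitfa also acts in pigment cells and was counted among 10 markers of xanthophores and other pigment cells. These markers summed to 11.5 and 15.7 CPM in csf1rDM and 395 and 346 CPM in control DsRed- libraries. Most of the control DsRed- sum came from aox5, pax7b, slc2a11b and gch2, not from mitfa. The part of pigment cells in these values was not tested. Against control DsRed+ cells, 2 of the 8 were higher in csf1rDM cells and 4 lower, all 6 past the threshold (75.0%, where 8.09% of all genes were), with a median of -1.15. The stem cell factor receptor gene kita (2.14 ± 0.23) and gata2b (2.5 ± 0.32) were higher, with limma adjusted p of 0.000668 and 0.00144, and fcer1g (-6.46), mitfb (-4.88), fcer1gl (-4.25) and mitfa (-2.01) were lower, with limma adjusted p between 4.96e-05 and 0.00185. Without csf1rDM replicate 3 kita gave 1.92 and mitfa -1.88, under the fold limit, which mitfa missed in 6 of the 16 alternatives that tested it.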

How the data were processed

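Cells were sorted on a FACS ARIA II, RNA was extracted with the miRNeasy Micro Kit, and libraries were made with the Ovation SoLo system with AnyDeplete probes and sequenced as pairs on a NovaSeq. Per the labels and the study's methods, the authors aligned reads with STAR (2.5.4b) to GRCz11, counted them per gene of Ensembl with HTSeq (0.11.0) and tested them with edgeR. What they deposited is a signal made from these counts, scaled by the authors per library to a total of 20000000 and rounded up, as read from the values. Whole reads were recovered from the step of each library for at least 99.914% of its values (within the rounding), and a test of this step on simulated data gave back 100.0% of reads.

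Deposited values were divided by the library total to give CPM. The 20382 genes that reached 1 CPM in 2 or more libraries were tested with limma (3.58.1, R 4.3.3; empirical Bayes with a trend) on log2(CPM + 1) with TMM factors of edgeR (4.0.16), which ranged from 0.922 to 1.128. The pseudocount of 1 understates the change of low genes. All 6 libraries were fitted with one coefficient per group, and p-values were adjusted by the Benjamini-Hochberg method over all genes of a comparison. The threshold was the study's own, an adjusted p under 0.05 with a log2 change of more than 2. Data were also simulated for csf1rDM compared with control DsRed- cells, with 200 of 19833 genes shifted by 3 on the log2 scale. Of these, limma called 190, and it called 0 others. The count was not split by level or by spread between replicates. It cannot give the share of changes found or of false calls for low members such as lect2l or uneven ones such as mpx.

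Named genes were all 7 members, the 3 nearest patterns of each tested member and, of the other lists, up to 4 genes in each direction, taken in order of adjusted p from those past the threshold whose replicates did not overlap. Genes named outside this rule (the p-only genes of the lists, and those in the account of the csf1rDM replicates) were chosen after their values were seen. One gene of the other neutrophil list is not reported here and was left out of its counts. The members and all lists were chosen with earlier results of these data known. Alternatives were edgeR's quasi-likelihood test and DESeq2 (1.42.0) on recovered reads, other scalings, filters, pseudocounts and fold limits, fits of only the groups compared, thinning, a replicate block and leaving out each library. Leaving out csf1rDM replicate 3 for the other lists was added after seeing the data. A fit without a library had a single library left in that group, so its p-values take no spread from that group. The table has 0 value columns without a sample. No genome of the authors' build was used, so no coordinates or sequences are given. Figures were drawn with matplotlib (3.10.9).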

Additional observations from a re-analysis of the deposited data

How the results depend on the processing

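The calls of csf3r held under all 17 alternatives run for it, with log2 fold changes of 5.49 to 6.57 in control DsRed+ compared with control DsRed- cells (highest adjusted p 0.00242) and of -7.29 to -5.82 in csf1rDM compared with control DsRed+ cells (highest adjusted p 0.00166). In csf1rDM compared with control DsRed- cells it ranged from -0.94 to -0.19 and passed under none of them. The number of members past the threshold changed in each comparison. For control DsRed+ against control DsRed- cells it was 1, became 2 with a fold limit of 1, and was 1 to 2 on leaving out each library. For csf1rDM against control DsRed- cells it was 0, became 1 with DESeq2, and was 0 to 1 on leaving out each library. For csf1rDM against control DsRed+ cells it was 2, became 1 with a pseudocount of 4 CPM and 3 with DESeq2, and was 1 to 2 on leaving out each library.

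Signs turned only for changes that were not called. mpx in control DsRed+ compared with control DsRed- cells became -0.46 with the replicate block, and in csf1rDM compared with control DsRed+ cells ranged from -0.12 (without csf1rDM replicate 3) to 3.59 (without csf1rDM replicate 2) on leaving out each library. On leaving out each library, lect2l ranged from -0.08 to 0.99 in control DsRed+ and from -0.14 to 0.93 in csf1rDM, both compared with control DsRed- cells, the low end without control DsRed- replicate 2 and the high end without replicate 1. In csf1rDM compared with control DsRed+ cells it became 0.30 with thinned libraries and 0.18 with the replicate block, and ranged from -0.28 to 0.15 on leaving out each library, turning sign without csf1rDM replicate 3 (0.15) and control DsRed+ replicate 3 (0.06). The cause was not tested. mpx could not be fitted for the control comparison alone, and mpx and lect2l with a filter of 5 CPM, as too few libraries reach the filter.

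Each pair of groups shares a single replicate number, and libraries with the same number did not deviate together (r = -0.423, 0.031 and 0.021 across genes). Each r rests on a single pair of libraries from groups of 2, so it cannot decide whether the numbers pair the samples. The replicate block took the genes past the threshold in csf1rDM compared with control DsRed- cells to 67 (317 without it) and npsn in the control comparison to -1.17 (adjusted p = 0.107). With it the calls of mmp13a (2.82, adjusted p = 0.074), gata2a (-2.38, 0.101), mitfa (-2.43, 0.107), kita (1.17, 0.188) and runx3 (-1.56, 0.142) in csf1rDM compared with control DsRed- cells and of csf3b (1.51, 0.0577) in the control comparison were lost. In csf1rDM compared with control DsRed+ cells, the block left 1 of the 23 G-CSF pathway genes higher and 7 lower by adjusted p. Of the 31 other neutrophil genes it left 5 higher and 9 lower there.

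Counts over all genes moved by more than 1.5 times in several settings. The 1227 genes of the control comparison became 1852 with edgeR's quasi-likelihood test, 796 with a pseudocount of 4 CPM and 3977 with a fold limit of 1. The 317 of csf1rDM against control DsRed- cells became 654 with DESeq2, 496 and 137 with pseudocounts of 0.25 and 4 CPM, 1148 with a fold limit of 1, and 509, 170 and 111 without csf1rDM replicate 2, control DsRed- replicate 1 and control DsRed- replicate 2. The 1648 of csf1rDM against control DsRed+ cells became 2509 with edgeR, 2494 with DESeq2, 997 with a pseudocount of 4 CPM and 5039 with a fold limit of 1. Over all alternatives, the genes of the neutrophil list past the threshold numbered 8 to 12 higher (11) in the control comparison, 0 to 3 higher (1) in csf1rDM against control DsRed- cells, and 0 to 3 higher (2) and 6 to 9 lower (8) in csf1rDM against control DsRed+ cells, with the reported counts in parentheses. By adjusted p alone, 1 to 4 of its genes were lower (4) in the control comparison and 0 to 7 higher (4) in csf1rDM against control DsRed- cells, where 0 to 2 genes of the mast cell list were past the threshold and lower (2). The median of the mast cell list in the control comparison ranged from -0.70 to 1.68. Scaling by library totals alone moved the median of all genes to -0.206 in the control comparison and to -0.176 in csf1rDM against control DsRed- cells, and changed no member's call. With 2 libraries per group and 1 to 3 reads behind many values, differences among lyz, cebp1 and cpa5 were out of reach.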

Other observations

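Markers of other leukocytes were also measured in the same libraries. The 9 matched T and NK lymphocyte genes summed to 48.8 and 30.9 CPM in csf1rDM, 198 and 211 CPM in control DsRed+ and 70.6 and 49.5 CPM in control DsRed- libraries. Most of the control DsRed+ sum came from cd8a (104 and 74.1 CPM) and cd4-1 (63.1 and 87.4 CPM), which is also in the metaphocyte list. By contrast, zap70 was highest in csf1rDM (4.95 and 3.5 CPM) and tox in control DsRed- libraries (48.2 and 29.1 CPM). The 4 matched B lymphocyte genes summed to at most 4.8 CPM in any library. The 10 erythroid genes lay between 53.2 and 77.8 CPM in all 6 libraries. The pan-leukocyte gene ptprc had 15.0 and 10.7 CPM in csf1rDM, 571 and 785 CPM in control DsRed+ and 20.2 and 13.2 CPM in control DsRed- libraries, highest in control DsRed+ cells as csf3r was. The 5 thrombocyte genes summed to 505 and 524 CPM in csf1rDM, 196 and 200 CPM in control DsRed+ and 416 and 394 CPM in control DsRed- libraries, nearly all of it from f2rl1.2 and thbs1b. mpl, the thrombopoietin receptor gene of that list, had 0 and 0.50 CPM in csf1rDM, 3.80 and 1.90 CPM in control DsRed+ and 0.40 and 0 CPM in control DsRed- libraries, and itga2b at most 0.45 CPM.

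A reference table of gene names pairs the mpx identifier with the symbol EPX, eosinophil peroxidase, and that of cpa5 with CPA1. Both names denote relatives of the proteins named in the deposited table, and the values given for mpx and cpa5 are those of the identifiers printed with them.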
